A study of Mus musculus with 33 samples.

Results

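Livers of nonfasted mice given rapamycin (n = 2) were set against livers of uninjected fasted mice (n = 5), which makes 7 of the 33 livers of the series. The 7 were taken by their sample titles, and it was known when these groups were picked that their shares of values at or below 0 were similar. The nonfasted rapamycin mice kept their food, were injected with rapamycin at 10 mg/kg in 0.9% NaCl with 2% ethanol, and were killed 24 h later. The uninjected fasted mice went without food for 24 h and received neither drug nor vehicle. Further groups stand beside them where stated: mice fasted for 22 h, injected with vehicle and killed 2 h later without food (fasted vehicle 0 h, n = 3), and nonfasted mice killed 24 h after vehicle (nonfasted vehicle, n = 2). All were adult males, with 1 array per mouse and no pooling stated. Strain, genotype and time of day at death are not given in the sources used here. Feeding, injection and drug all differ between the nonfasted rapamycin and the uninjected fasted livers and cannot be told apart in this comparison.

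Rapamycin inhibits mTORC1, a kinase complex that responds to insulin and amino acids and promotes protein synthesis, lipid synthesis and growth while holding back autophagy. In a fed liver, insulin supports synthesis of fatty acids and sterols, largely through transcription factors of the SREBP family. In a fasted liver, glucagon, glucocorticoids and fatty acids support gluconeogenesis through factors such as FOXO1 and CREB, and fatty acid oxidation through the nuclear receptor PPARα.

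RNA abundance was read as probe set intensities in arbitrary units, in which values near or below 0 lie in the background. Log2 changes are nonfasted rapamycin minus uninjected fasted, from values floored at 6.31, with standard errors (SE) from a limma fit over all 33 arrays and Benjamini-Hochberg adjusted p-values with a threshold of 0.05. Of 6568 probe sets tested, 843 were higher (12.8%) and 718 were lower (10.9%) in nonfasted rapamycin livers, and the median log2 change over all of them was 0. With 1 probe set per gene, 13.1% of 5001 genes were higher and 11.7% were lower, and gene groups are read against these shares. Without the second nonfasted rapamycin array the probe set counts fell to 395 and 374. The share of values at or below 0 was 35.3% to 36.4% on the nonfasted rapamycin arrays and 35.8% to 40.8% on the uninjected fasted arrays. Pearson's r across probe sets was 0.951 between the nonfasted rapamycin arrays, 0.943 to 0.956 among the uninjected fasted arrays, and 0.871 to 0.911 between the groups. Nothing states that mice were housed or treated separately, so the p-values measure only the spread between mice within groups. That spread was pooled over all 33 arrays and not taken from the nonfasted rapamycin and uninjected fasted arrays alone. The number of arrays limits the precision.

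**Figure D1:**
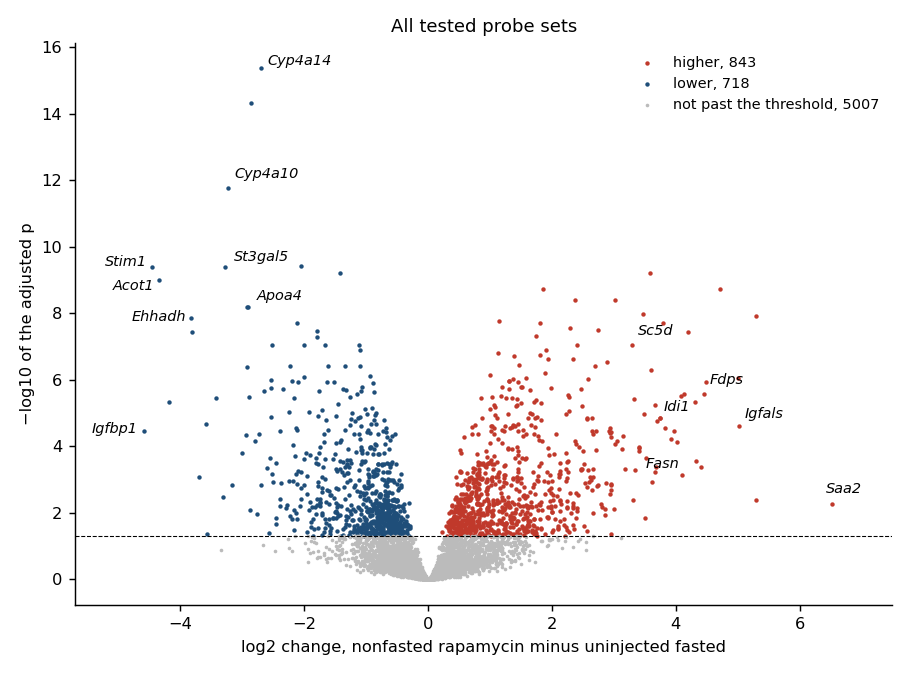
Each point is 1 of 6568 tested probe sets. The x axis gives the log2 change of nonfasted rapamycin (n = 2) minus uninjected fasted livers (n = 5) and the y axis −log10 of the adjusted p, with the threshold of 0.05 as a dashed line. Cyp4a14 and Cyp4a10 lie at the top left among 718 lower probe sets, and Saa2 lies farthest right among 843 higher ones.

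**Figure D2:**
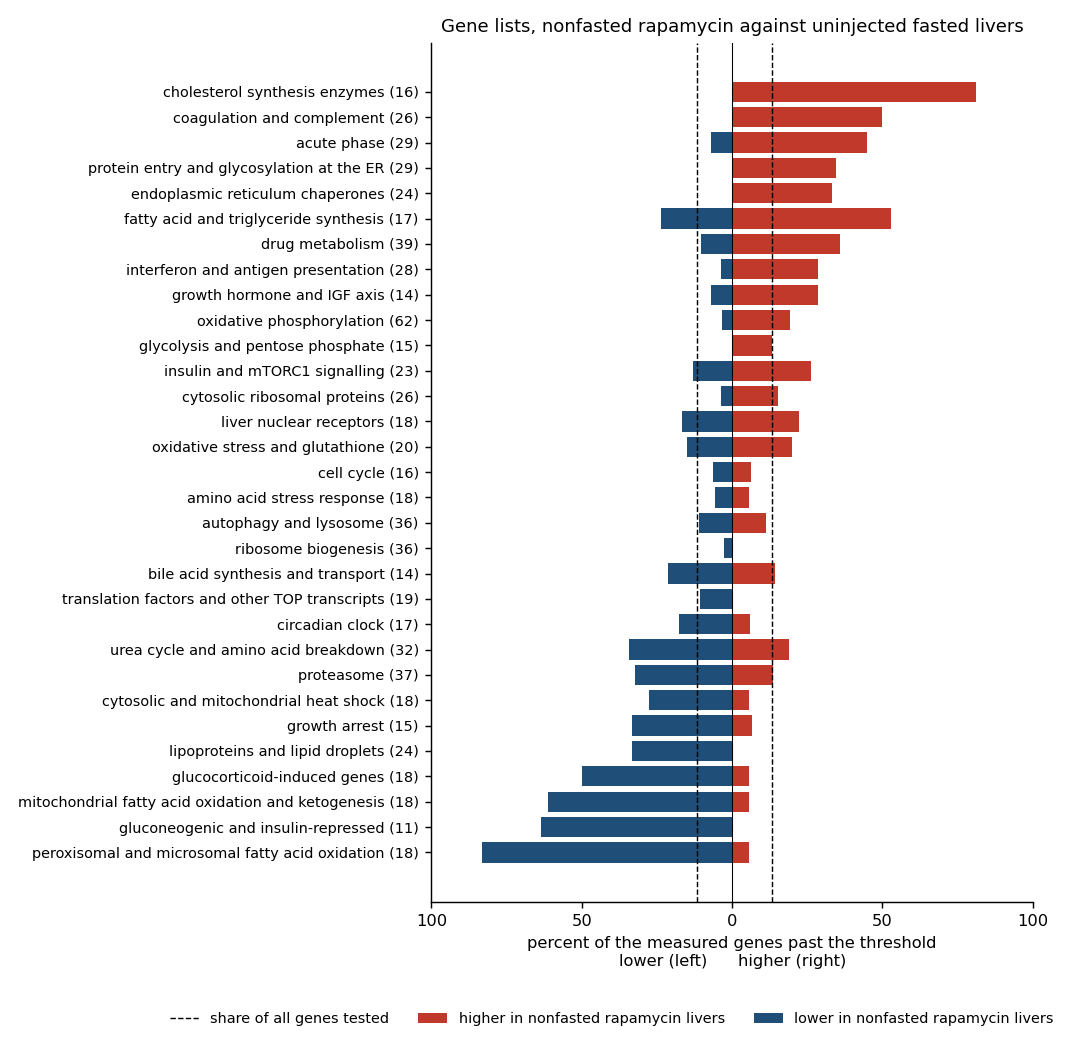
Bars give the percent of measured genes of each list that were higher (to the right) or lower (to the left) in nonfasted rapamycin livers (n = 2) than in uninjected fasted livers (n = 5), with the number of measured genes in brackets. Dashed lines mark the shares over all 5001 genes, 13.1% higher and 11.7% lower. Cholesterol synthesis stands farthest to the right and peroxisomal and microsomal fatty acid oxidation farthest to the left.

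Sterol synthesis separated the groups along most of its pathway. Of 16 measured cholesterol synthesis enzymes, 13 were higher in nonfasted rapamycin livers and 0 were lower, with a median log2 change of 3.00 against 0 over all genes, and the count was also 13 without the first or the second nonfasted rapamycin array. Bulk tissue cannot tell fewer cells of a type from less RNA per cell, here or in the results that follow. The early steps make mevalonate and activated isoprene units. Hmgcs1, which makes HMG-CoA in the cytosol, measured 1016 and 1226 in nonfasted rapamycin livers, against 231.1, 321, 245, 240 and 350 in uninjected fasted livers, a log2 change of 2.03 ± 0.35 (SE, adjusted p = 0.000166). Idi1, the isomerase of isopentenyl diphosphate, measured 497 and 685 against 56.5, 28, 46, 34 and 74 in uninjected fasted livers (3.70 ± 0.54). The groups did not overlap for either gene.

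The middle steps join isoprene units into squalene. Fdps, which builds farnesyl diphosphate, measured 1325 and 1101 in nonfasted rapamycin livers, against 64.3, 68, 33, 38 and 94 in uninjected fasted livers. Its log2 change was 4.45 ± 0.56 (adjusted p = 2.67e-06), and a second Fdps probe set gave 4.71, while one more lay far below 0 in both groups and carried no signal. Fdft1, which joins farnesyl units to squalene, measured 487 and 473 against 62.3, 25, 49, 39 and 80 in uninjected fasted livers (3.34 ± 0.65), and every nonfasted rapamycin array stood above every uninjected fasted one. Sqle, the squalene epoxidase, changed by 2.65 and Lss, the lanosterol synthase, by 2.43.

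The late steps turn lanosterol into cholesterol. Cyp51, which removes a methyl group from lanosterol, measured 244 and 330 in nonfasted rapamycin livers, against -2.4, 15, 20, 11 and 28 in uninjected fasted livers. All 5 uninjected fasted arrays lay at or below 30, so the level was at least 9.46-fold higher. Msmo1, a sterol methyl oxidase, measured 385 and 463 against 23.5, 23, 35, 39 and 42 in uninjected fasted livers (3.74 ± 0.53). Sc5d, a sterol desaturase, measured 382 and 387 against 40.1, 32, 50, 36 and 41 in uninjected fasted livers (3.29 ± 0.33, adjusted p = 9.19e-08). Dhcr7, which makes cholesterol in the last step of one branch, changed by 3.79, Nsdhl by 2.94 and Ebp by 1.30. The size for Dhcr7 depends on the floor, since no uninjected fasted array exceeded 10, and was 1.68 with values raised to 30. The 3 enzymes that did not pass were Mvk (1.13, adjusted p = 0.0817), Tm7sf2 (-0.04) and Hsd17b7 (-0.51, adjusted p = 0.22). Npc1, which exports cholesterol from lysosomes, moved the other way, with 189 and 190 in nonfasted rapamycin livers against 571.9, 386, 604, 434 and 487 in uninjected fasted livers (-1.37 ± 0.17).

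Because these genes moved together, their promoters were searched for the core of a sterol regulatory element (TCACNCCAC), the DNA element bound by SREBP proteins, and for the CCAAT box (CCAAT), bound by NF-Y, on both strands. RefSeq windows of GRCm38.p6 that run from 250 bases before to 50 after the transcription start were at hand for 10 of the 13 genes that passed. A CCAAT box lay in the windows of 10 of 10, against 41.06% of 27025 genes, and the sterol element core in those of 1 of 10, against 1.436%. Among the peroxisomal and microsomal oxidation genes that were lower, 10 of 15 had a window, of which 7 held a CCAAT box and 1 (Ehhadh) the sterol element core. A direct repeat of the kind PPARα binds (AGGTCA, any 1 base, AGGTCA again, on either strand) was in 0 of 10 windows of either group, against 0.0481% of genes. A match describes letters and not a bound site. Among the sterol synthesis genes with a window only Hmgcs1 held both motifs, as did Ehhadh among the oxidation genes. The 250 bases before the start are shown for Hmgcs1 and for 3 genes named above among the largest rises. They are written 5′ to 3′ on the gene's strand with matches in capitals. CCAAT on the opposite strand reads ATTGG, and no match overlapped another in these 4 windows.
Hmgcs1, chr13:119690101-119690350, plus strand: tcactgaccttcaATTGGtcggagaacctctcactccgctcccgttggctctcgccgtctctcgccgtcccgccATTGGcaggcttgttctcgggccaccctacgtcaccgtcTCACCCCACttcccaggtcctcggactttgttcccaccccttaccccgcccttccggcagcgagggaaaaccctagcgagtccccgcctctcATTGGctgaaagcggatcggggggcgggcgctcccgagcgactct
Idi1, chr13:8885356-8885605, plus strand: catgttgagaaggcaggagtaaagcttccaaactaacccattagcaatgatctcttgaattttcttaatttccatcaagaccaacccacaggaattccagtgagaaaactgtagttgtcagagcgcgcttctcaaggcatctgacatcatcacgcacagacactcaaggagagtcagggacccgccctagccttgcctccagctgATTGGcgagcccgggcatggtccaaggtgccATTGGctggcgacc
Msmo1, chr8:64733579-64733828, minus strand: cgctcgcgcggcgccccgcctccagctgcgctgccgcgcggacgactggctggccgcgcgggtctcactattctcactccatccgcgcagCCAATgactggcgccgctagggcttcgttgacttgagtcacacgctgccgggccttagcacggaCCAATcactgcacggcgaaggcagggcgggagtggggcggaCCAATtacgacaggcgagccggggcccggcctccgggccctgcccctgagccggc
Sc5d, chr9:42264301-42264550, minus strand: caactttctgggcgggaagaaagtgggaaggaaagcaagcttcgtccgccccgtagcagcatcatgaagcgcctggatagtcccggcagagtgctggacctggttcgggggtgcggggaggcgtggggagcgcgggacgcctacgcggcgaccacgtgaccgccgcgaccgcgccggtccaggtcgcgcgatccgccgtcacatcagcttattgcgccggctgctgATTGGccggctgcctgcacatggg
The Hmgcs1 stretch holds 1 sterol element core and 3 CCAAT boxes, that of Idi1 holds 2 CCAAT boxes, that of Msmo1 holds 3 and that of Sc5d holds 1. The genes themselves lie at chr13:119690351-119708260 (Hmgcs1), chr13:8885606-8892396 (Idi1) and chr9:42251592-42264300 (Sc5d).

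Genes of fatty acid and triglyceride synthesis passed in both directions. Of 17 measured, 9 were higher and 4 were lower in nonfasted rapamycin livers, with a median log2 change of 0.74. Srebf1, which encodes the SREBP1 factors, measured 822 and 769 in nonfasted rapamycin livers, against 153.4, 190, 90, 94 and 50 in uninjected fasted livers (2.93 ± 0.68, adjusted p = 0.00269). Fasn, the fatty acid synthase, measured 762 and 1193 against 109, 64, 72, 87 and 133 in uninjected fasted livers (3.41 ± 0.59, adjusted p = 0.000142). The groups were far apart for both. Acly, which supplies cytosolic acetyl-CoA, changed by 1.94, Mid1ip1, which activates acetyl-CoA carboxylase, by 3.41 and Thrsp, a lipogenic nuclear protein, by 2.66. Elovl6, an elongase of saturated fatty acids, measured 148 and 290 against at most 15 in uninjected fasted livers (4.50 ± 0.53). This size also depends on the floor, and was 2.79 with values raised to 30.

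The 4 lower genes of this list were the elongases of polyunsaturated fatty acids Elovl5 (-1.14) and Elovl2 (-1.30) and the lipins Lpin1 and Lpin2. Lpin1, a phosphatidate phosphatase that is also a coactivator of fasting genes, measured 42 and 72 in nonfasted rapamycin livers, against 422, 402, 587, 606 and 183 in uninjected fasted livers (-2.88 ± 0.37). Lpin2 measured 42 and 64 against 289.2, 270, 390, 393 and 208 in uninjected fasted livers (-2.54 ± 0.31). Neither lipin overlapped between the groups. Scd1, the stearoyl-CoA desaturase, measured 3464 and 3149 against 2025.3, 1436, 755, 2200 and 1601 in uninjected fasted livers and missed the threshold (1.13 ± 0.51, adjusted p = 0.108), while a dimmer Scd1 probe set gave 1.69 (adjusted p = 0.0334).

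Of 15 glycolysis and pentose phosphate genes, 2 were higher (13.3%, near the 13.1% of all genes) and 0 were lower. The higher count was 4 with a floor of 30 and after quantile normalization. The 2 belong to the nonoxidative pentose phosphate branch. Taldo1, the transaldolase, measured 78 and 69 in nonfasted rapamycin livers, against 12.2, -3, 32, -3 and 3 in uninjected fasted livers (2.88 ± 0.62). Tkt, the transketolase, changed by 3.61 (adjusted p = 0.00119, and 0.0579 with only these 7 arrays in the fit). For Pklr, the liver pyruvate kinase, probe sets disagreed: the brighter measured 181 and 256 against 99 to 178 in uninjected fasted livers (0.68, adjusted p = 0.327), and the other averaged 364 against 5.98 (5.01, adjusted p = 9.12e-07).

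**Figure D3:**
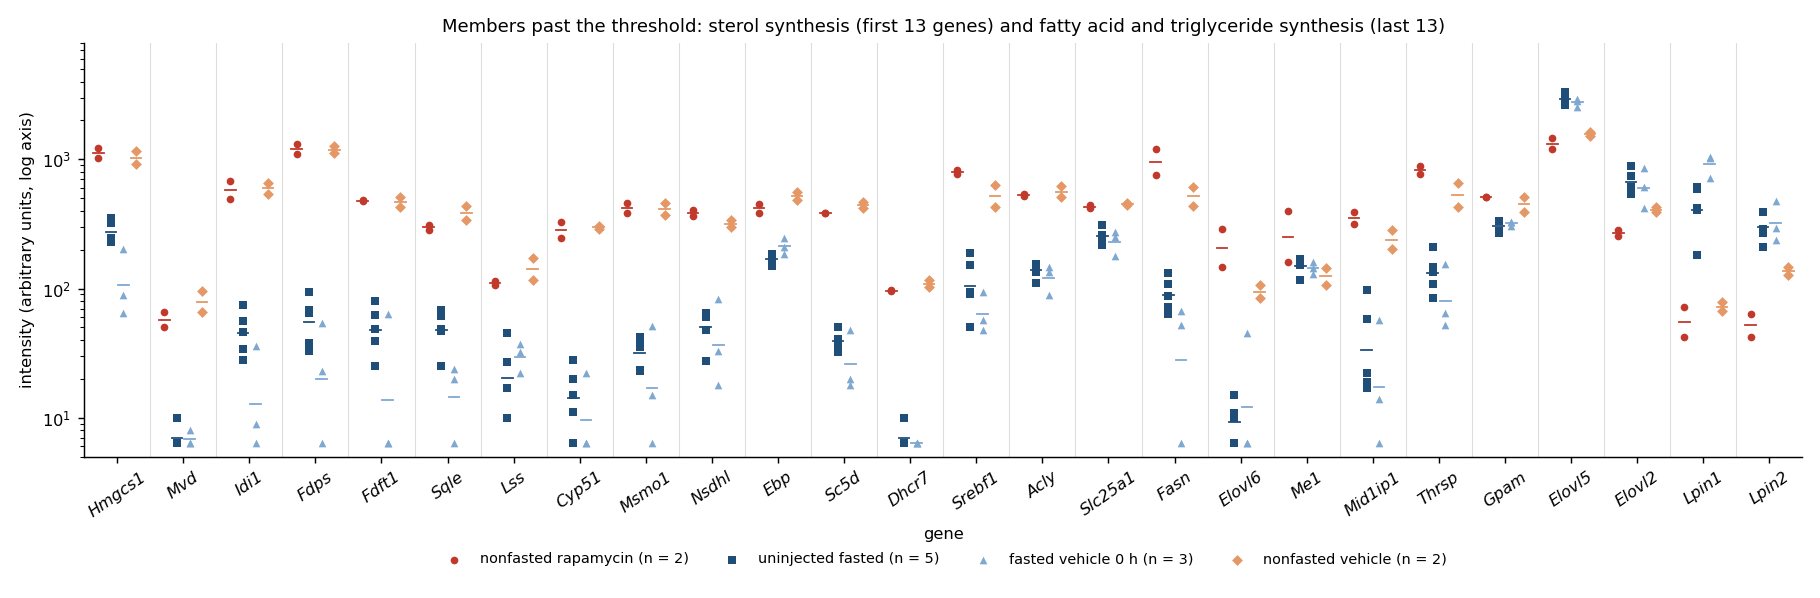
Intensities on a log axis, with values under 6.31 drawn at 6.31, of every member that passed in sterol synthesis (first 13 genes) and in fatty acid and triglyceride synthesis (last 13). Points are single arrays of nonfasted rapamycin, uninjected fasted, fasted vehicle 0 h and nonfasted vehicle livers, and lines are means of log values. Nonfasted rapamycin points stand above all uninjected fasted points for Fdps, Idi1, Sc5d and Fasn, and below them for Lpin1 and Lpin2.

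Most measured genes of fatty acid oxidation were lower. Of 18 measured peroxisomal and microsomal genes, 15 were lower and 1 was higher in nonfasted rapamycin livers, with a median log2 change of -1.36. Of 18 mitochondrial and ketogenic genes, 11 were lower and 1 was higher, with a median of -0.93. The omega-hydroxylases of the Cyp4a family, classical PPARα targets, gave the smallest adjusted p-values. Cyp4a14 measured 562 and 572 in nonfasted rapamycin livers, against 3724, 3727, 3593, 3805 and 3544 in uninjected fasted livers (-2.70 ± 0.10, adjusted p = 4.28e-16). Cyp4a10 measured 255 and 414 against 2728.3, 3336, 3339, 2626 and 3364 in uninjected fasted livers (-3.24 ± 0.17, adjusted p = 1.71e-12). Cyp4a12b, outside both lists, changed by -2.92. Members of this family have similar sequences, so probes may share signal among them.

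In the peroxisome, Ehhadh, the bifunctional enzyme of beta-oxidation, measured 33 and 79 in nonfasted rapamycin livers, against 526, 740, 805, 854 and 757 in uninjected fasted livers (-3.83 ± 0.34). Acot1, an acyl-CoA thioesterase of the cytosol, measured 34 and 28 against 509.4, 661, 605, 695 and 679 in uninjected fasted livers, and its change of -4.34 ± 0.32 was among the largest falls. The groups did not overlap for either gene. Pex11a, a factor of peroxisome division, changed by -2.35, Vnn1, a pantetheinase, by -2.22, the thiolase gene Acaa1a by -1.45 and Hsd17b4, the second bifunctional enzyme, by -1.11. The higher member was Abcd2, a peroxisomal transporter, at 23 and 24 against at most 15 in uninjected fasted livers, and this call was lost without either nonfasted rapamycin array.

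In mitochondria, Cpt1a, the entry step for long-chain fatty acids, measured 458 and 551 in nonfasted rapamycin livers, against 1518.1, 1520, 1763, 1390 and 1557 in uninjected fasted livers (-1.62 ± 0.18, adjusted p = 3.82e-07). Slc22a5, the carnitine importer, measured 23 and 28 against 79.3, 142, 134, 104 and 99 in uninjected fasted livers, which puts it at least 3.64-fold lower. The dehydrogenase genes Acadm and Acadl changed by -1.11 and -1.25 and Hadhb, of the trifunctional protein, by -0.98. Echs1, the short-chain enoyl-CoA hydratase, was the higher member, with 336 and 406 against 171.1, 165, 124, 169 and 155 in uninjected fasted livers (1.25). Angptl4, a secreted inhibitor of lipoprotein lipase, measured 95 and 136 against 469.6, 506, 483, 470 and 367 in uninjected fasted livers (-2.01 ± 0.23). Pdk4, which holds back pyruvate oxidation, measured 38 and 34 against 65.3, 398, 147, 111 and 86 in uninjected fasted livers (-1.85, adjusted p = 0.0309). The Pdk4 call was lost without either nonfasted rapamycin array (adjusted p = 0.111 without the first and 0.192 without the second), and also without uninjected fasted replicate 2 (0.0684) or 3 (0.0516).

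**Figure D4:**
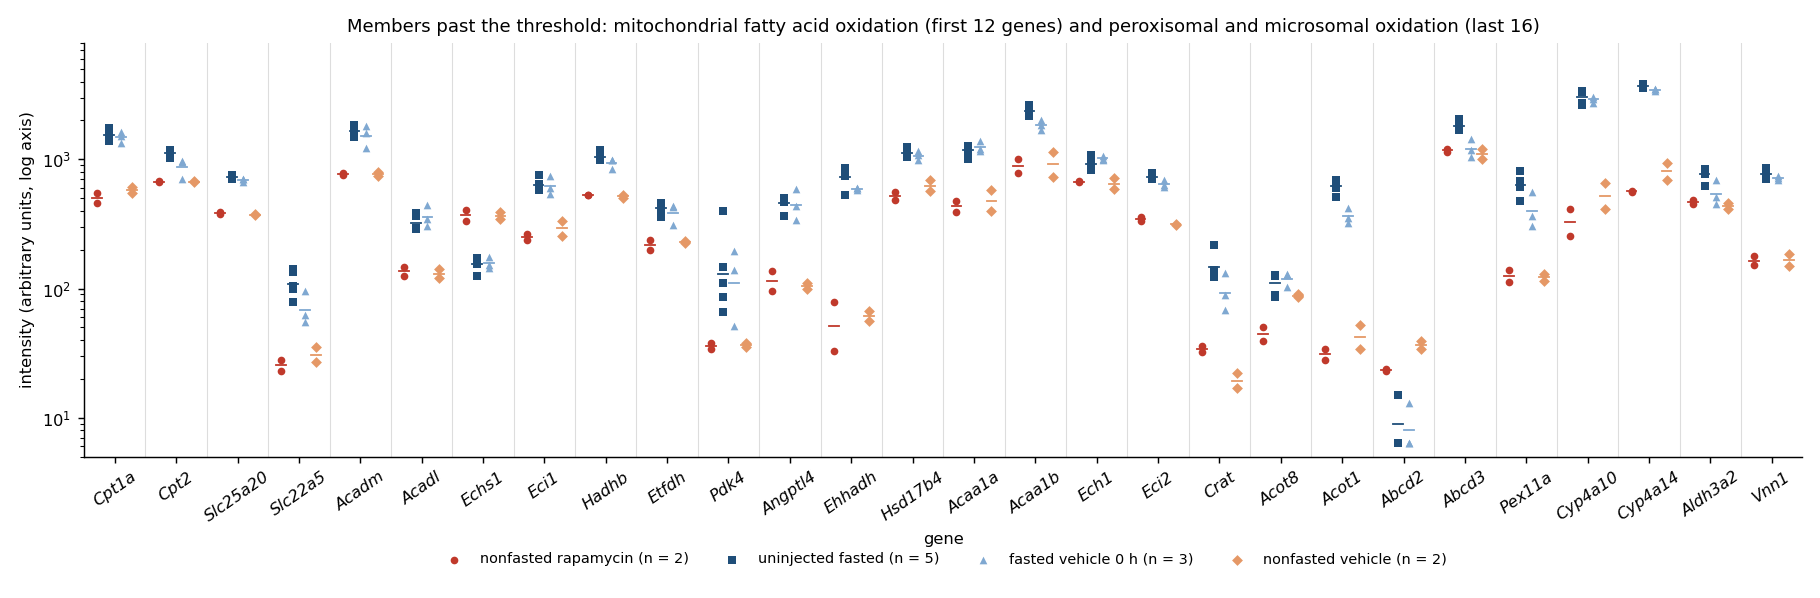
Intensities on a log axis, with values under 6.31 drawn at 6.31, of every fatty acid oxidation gene that passed, with mitochondrial genes first and peroxisomal and microsomal genes after them. Points are single arrays of the same 4 groups and lines are means of log values. Nonfasted rapamycin points lie below all uninjected fasted points for Cpt1a, Ehhadh, Acot1, Cyp4a10 and Cyp4a14, and above them for Echs1.

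Among 11 gluconeogenic and insulin-repressed genes 7 were lower and 0 were higher, with a median of -0.99. The count of 7 fell to 3 without the first nonfasted rapamycin array and to 3 with only these 7 arrays in the fit. Igfbp1, a secreted IGF-binding protein that insulin represses, measured 21 and 205 in nonfasted rapamycin livers, against 1535.8, 2104, 2267, 1930 and 688 in uninjected fasted livers (-4.59 ± 0.71, adjusted p = 3.58e-05). Pck1, which makes phosphoenolpyruvate from oxaloacetate, measured 386 and 740 against 2309.9, 2420, 2464, 2403 and 1966 in uninjected fasted livers (-2.11 ± 0.32). Neither gene overlapped between the groups, although the nonfasted rapamycin mice lay far from each other in Igfbp1. G6pc, which releases free glucose, measured 486 and 1393 against 2616.8, 2470, 2287, 1902 and 1720 in uninjected fasted livers (-1.40, adjusted p = 0.00637). The G6pc call was lost without the first nonfasted rapamycin array (adjusted p = 0.325) and with only these 7 arrays (0.0754). Ppargc1a, a coactivator of fasting genes, lay at 13 or below on all 7 arrays.

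Among 18 genes that glucocorticoids induce 9 were lower and 1 was higher, with a median of -1.08, and the 9 fell to 5 without the second nonfasted rapamycin array. Several also belong to the lists above (Lpin1, Angptl4, Pdk4, Tat). Fkbp5, a chaperone of the glucocorticoid receptor, measured 58 and 22 in nonfasted rapamycin livers, against 169.5, 240, 235, 329 and 149 in uninjected fasted livers (-2.60, adjusted p = 0.00044, and 0.0502 without the second nonfasted rapamycin array). Klf9, a receptor-induced transcription factor, changed by -1.66, and Tdo2, which starts tryptophan breakdown, by -1.15. The higher member was Lcn2, which is also an acute phase gene.

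Among 24 lipid transport and storage genes 8 were lower and 0 were higher, with a median of -0.43. Apoa4, an apolipoprotein of triglyceride-rich particles, measured 342 and 352 in nonfasted rapamycin livers, against 2783.3, 2572, 3091, 1772 and 3079 in uninjected fasted livers (-2.91 ± 0.24, adjusted p = 6.41e-09). Pnpla2, the adipose triglyceride lipase, changed by -1.49, and Plin2, a coat protein of lipid droplets, by -0.86. Among 14 bile acid genes 2 were higher and 3 were lower (14.3% and 21.4%, against 13.1% and 11.7% of all genes). Cyp8b1, the sterol 12-alpha-hydroxylase that sets the cholic acid share, measured 440 and 718 against 1939.8, 1771, 1924, 1625 and 1968 in uninjected fasted livers (-1.71 ± 0.23), without overlap. Abcb4, which exports phospholipid into bile, changed by -1.35 and Abcc3, a basolateral exporter, by -0.89. The higher genes became 1 without the second nonfasted rapamycin array. Nr0b2, the repressor SHP, measured 69 and 35 against 6 or less in uninjected fasted livers, at least 1.64-fold higher. Cyp7a1, which starts the classical route to bile acids, overlapped fully, with 111 and 300 against 305.1, 42, 138, 283 and 85 in uninjected fasted livers (0.45, adjusted p = 0.735).

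Among 14 genes of the growth hormone and IGF axis 4 were higher and 1 was lower, with a median of 0.89. Igfals, the acid-labile subunit that stabilises circulating IGF1, measured 292 and 308 in nonfasted rapamycin livers, against -42.3, -55, -71, -34 and 43 in uninjected fasted livers (5.02 ± 0.75, adjusted p = 2.43e-05), a change whose size depends on the floor. Igf1 measured 1495 and 1393 against 909.3, 744, 693, 897 and 798 in uninjected fasted livers (0.84 ± 0.16), and a dimmer Igf1 probe set gave 0.28 (adjusted p = 0.071). Ghr, the growth hormone receptor, changed by 0.94, and Igfbp2, a binding protein that rises in fasting, by -0.98. Of 17 clock genes 1 was higher and 3 were lower (5.88% and 17.6%, against 13.1% and 11.7% of all genes). Bhlhe40, a repressor of the clock loop, measured 152 and 139 against -1.8, -14, 17, 11 and -30 in uninjected fasted livers, at least 4.85-fold higher. Per3 changed by -1.32 (adjusted p = 0.000359). The calls of Nr1d1 (-1.34) and Cry2 (-0.97) were lost without the second nonfasted rapamycin array (adjusted p = 0.0762 and 0.139). Arntl overlapped between the groups (-0.37, adjusted p = 0.468) and Dbp lay below 0 on all 7 arrays.

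Among 23 genes of the insulin and mTORC1 pathway 6 were higher and 3 were lower. The 6 fell to 2 without the second nonfasted rapamycin array and the 3 to 1 without the first. Pik3r1, the regulatory subunit of PI3 kinase, measured 61 and 56 in nonfasted rapamycin livers, against 13.7, 5, 5, 17 and -2 in uninjected fasted livers, at least 1.95-fold higher (adjusted p = 3.76e-07). Mtor itself measured 36 and 60 against 96.4, 70, 88, 61 and 93 in uninjected fasted livers (-0.79, adjusted p = 0.014), a call lost without the first nonfasted rapamycin array (0.339) and with only these 7 arrays (0.108). A second Mtor probe set gave -1.79 (adjusted p = 0.222). Eif4ebp1, the translation repressor that mTORC1 phosphorylates, measured 31 and 33 against 56.9, 56, 46, 54 and 61 in uninjected fasted livers (-0.77, adjusted p = 0.0619), and passed with a floor of 30 (0.0481) and with only these 7 arrays (0.0093). Irs2, the insulin receptor substrate, lay near background in both groups (-0.90, adjusted p = 0.439).

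Among transcripts of the translation machinery, whose translation mTORC1 controls, few for ribosome biogenesis or translation factors passed. Of 36 ribosome biogenesis genes 0 were higher and 1 was lower. Of 19 translation factors and related TOP transcripts 0 were higher and 2 were lower. Of 26 cytosolic ribosomal protein genes 4 were higher (15.4%, against 13.1% of all genes) and 1 was lower. Without overlap between the groups, 15 of the 26 stood higher and 2 lower, against 979 and 883 of 5001 genes. Without the first nonfasted rapamycin array none of the lower calls was left, and the 4 became 1 without either array. Rplp0, a stalk protein of the large subunit, measured 1669 and 1751 in nonfasted rapamycin livers, against 1114.8, 1211, 1182, 1164 and 1298 in uninjected fasted livers (0.52 ± 0.09). Among 36 autophagy and lysosome genes 4 were higher, with 1 higher without the second nonfasted rapamycin array, and 4 were lower, with 1 lower without the first. Each count of 4 is 11.1% of the list, near or below the 13.1% and 11.7% of all genes. Bnip3, a receptor for mitochondrial autophagy, measured 69 and 72 against 192.1, 229, 267, 311 and 240 in uninjected fasted livers. Its log2 change was -1.80 ± 0.17 (adjusted p = 3.42e-08).

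In the secretory pathway the genes that passed were all higher, though most did not pass. Of 29 genes for protein entry and glycosylation at the endoplasmic reticulum 10 were higher and 0 were lower, and of 24 chaperones of that compartment 8 were higher and 0 were lower, which became 5 without the second nonfasted rapamycin array. Tram1, which helps chains into the translocon, measured 544 and 517 in nonfasted rapamycin livers, against 218.3, 188, 228, 190 and 196 in uninjected fasted livers (1.38 ± 0.14, adjusted p = 1.89e-07). Sec61b, a translocon subunit, changed by 1.65 and Ostc, of the oligosaccharyltransferase, by 1.46. Ppib, a proline isomerase of the lumen, measured 341 and 264 against 127.1, 96, 112, 90 and 111 in uninjected fasted livers (1.50 ± 0.18). Xbp1, a transcription factor of secretory capacity, changed by 0.97.

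Transcripts of secreted defence proteins were measured in 2 lists. Of 26 coagulation and complement genes 13 were higher and 0 were lower, with 8 higher without the first nonfasted rapamycin array. Mbl1, a mannose-binding lectin, measured 576 and 451 in nonfasted rapamycin livers, against 218.2, 175, 154, 161 and 240 in uninjected fasted livers (1.45 ± 0.17), and Serpind1, heparin cofactor II, changed by 1.12. Of 29 acute phase genes 13 were higher and 2 were lower, with 6 higher without the first nonfasted rapamycin array. Apcs, serum amyloid P, measured 1211 and 1095 against 220.9, 216, 239, 248 and 269 in uninjected fasted livers (2.28 ± 0.29). Orm2, an orosomucoid, measured 1319 and 876 against 94.2, 172, 71, 99 and 37 in uninjected fasted livers (3.68 ± 0.70). Neither overlapped between the groups.

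Saa2, a serum amyloid A protein, had the largest change of all, with 5029 and 2807 in nonfasted rapamycin livers, against 23.6, 142, 66, 20 and 25 in uninjected fasted livers (6.53 ± 1.66, adjusted p = 0.00561). The nonfasted vehicle mice measured 125 and 3949 for it, so it varied widely between mice that received no drug, and its call against uninjected fasted livers was lost without the first nonfasted rapamycin array (adjusted p = 0.058). Lcn2, a siderophore-binding protein, measured 1778 and 256 against 69.3, 168, 34, 95 and 39 in uninjected fasted livers (3.31, adjusted p = 0.00416), and was lost without the first nonfasted rapamycin array (0.192) and with only these 7 arrays (0.0697). The lower members were Cd14, the endotoxin co-receptor, at -1.29 and Il6ra, the interleukin 6 receptor, at -1.95.

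Of 37 proteasome genes measured, 20 did not pass, 12 were lower (32.4%, against 11.7% of all genes) and 5 were higher (13.5%, against 13.1%). The 12 were all genes of the standard 20S core or of the 19S cap and its assembly, among them Psmd4 (-1.09) and Psmd9 (-1.07). The 5 higher were Psmb6, also of the standard core, and the interferon-inducible Psmb8, Psmb9, Psmb10 and Psme1, and this count was 3 without the first or the second nonfasted rapamycin array. Psmb8, a subunit of the immunoproteasome, measured 150 and 122 in nonfasted rapamycin livers, against 49.3, 88, 48, 34 and 39 in uninjected fasted livers (1.47 ± 0.33). Psmb10 measured 67 and 96 against -63.5, -21, -11, -16 and -38 in uninjected fasted livers, at least 2.67-fold higher. Among 28 genes of interferon response and antigen presentation 8 were higher and 1 was lower, with 5 higher without the first nonfasted rapamycin array and 0 lower without the second. These 28 include 4 of the proteasome genes just named, and Ly6e, an interferon-induced surface protein, changed by 1.02.

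Several of the largest changes lay outside these groups. St3gal5, the sialyltransferase that makes ganglioside GM3, measured 71 and 65 in nonfasted rapamycin livers, against 604.4, 747, 679, 821 and 495 in uninjected fasted livers (-3.28 ± 0.23, adjusted p = 4.21e-10). Stim1, a calcium sensor of the endoplasmic reticulum, measured 13 and 36 against 451.9, 459, 559, 353 and 604 in uninjected fasted livers (-4.46 ± 0.31). Slc7a2, a transporter of cationic amino acids, measured 85 and 53 against 444.5, 403, 511, 355 and 267 in uninjected fasted livers (-2.53 ± 0.25). All 3 were lower on each nonfasted rapamycin array than on any uninjected fasted array. Cyp2c70, which makes muricholic acids in mice, measured 1250 and 1386 against 43 to 222 in uninjected fasted livers (4.03 ± 0.66, adjusted p = 7.36e-05). Car3, carbonic anhydrase III, measured 2260 and 1602 against 243.9, 286, 421, 159 and 159 in uninjected fasted livers (3.01, adjusted p = 0.00794), but its call was lost without the first (0.0786) or the second (0.0501) nonfasted rapamycin array.

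Among 39 drug metabolism genes 14 were higher and 4 were lower, with 7 higher without the second nonfasted rapamycin array and 2 lower without the first or the second. The shares were 35.9% higher and 10.3% lower, against 13.1% and 11.7% of all genes. The glutathione transferase gene Gstt1 measured 864 and 985 in nonfasted rapamycin livers, against 328, 353, 341, 365 and 367 in uninjected fasted livers (1.40 ± 0.21). Gstm3 changed by 1.10, though a second Gstm3 probe set gave 0.37 (adjusted p = 0.387). The glutathione transferase genes are a family of similar sequences, so signal may be shared among them. Cyp1a2, a marker of hepatocytes around the central vein, measured 1144 and 1501 against 349.4, 182, 161, 323 and 24 in uninjected fasted livers, without overlap, but missed the threshold (3.11 ± 1.18, adjusted p = 0.0575, and 0.0045 with a floor of 30).

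The tissue label was checked against markers. The summed intensity of 10 hepatocyte markers was 27213 to 28157 on the nonfasted rapamycin arrays and 32631 to 36836 on the uninjected fasted arrays, and 5 of the 10 were lower (Tdo2 and Cps1 among them, 3 in all without either nonfasted rapamycin array) and 1, Ttr, was higher. Of 14 tested Kupffer cell markers 2 were higher and 1 was lower, and the sum over 17 was 2129 to 2308 against 1126 to 2836 in uninjected fasted livers. Of 10 tested stellate cell markers 2 were higher and 3 were lower, with sums over 14 of 1216 to 1487 against 1602.6 to 1875 in uninjected fasted livers. Of 12 tested endothelial markers 1 was higher and 1 was lower, with sums over 14 of 547 to 773 against 474 to 651 in uninjected fasted livers. Lymphocyte markers summed to 527 to 843 against 867 to 1256 in uninjected fasted livers, and of 14 the T cell genes Cd3d, Cd3e, Cd3g and Cd8a were at or below 30 on all 7 arrays. Of 4 tested lymphocyte markers Ms4a1 (-0.69) and Ighm (-0.57) were lower and 0 were higher. Most of the lymphocyte sum came from these 2 genes. Ms4a1 measured 475 and 329 against 569 to 742 in uninjected fasted livers, and Ighm 165 and 124 against 192.9 to 231. Without the second nonfasted rapamycin array the changes of Ms4a1 and Ighm were -0.42 and -0.37. Neutrophil markers summed to 293 to 354 against 181 to 311 in uninjected fasted livers, with S100a8, S100a9, Ltf, Mpo and Ngp at or below 30 throughout. The 3 tested neutrophil markers went the other way from this sum, since 0 had a positive log2 change (median -0.46), and 0 passed. Of 7 bile duct markers 5 were likewise at or below 30 (Krt7, Krt19 and Epcam among them), and so were all 6 of kidney (Umod, Kap and Aqp2 among them). The 2 tested bile duct markers had a median log2 change of 0.71 and did not pass. At or below 30 on all 7 arrays were also 2 of 6 pancreas, 4 of 7 skeletal muscle, 2 of 4 adipocyte and 2 of 4 erythroid markers. The marker calls rested on single arrays in part, since 0 stellate cell markers were higher without the first nonfasted rapamycin array and 0 were lower without the second, and 1 Kupffer cell marker was higher without either. The part of these cell types in the results above was not tested.

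Fasting with an injection gave a second baseline. Against the fasted vehicle 0 h livers, 12.1% of the 6568 probe sets were higher and 8.72% were lower (12.5% and 9.24% of genes) in the same nonfasted rapamycin livers, and since these arrays are shared the comparisons are not independent. The fasted vehicle 0 h livers measured 6, 23 and 54 for Fdps, 3507, 3398 and 3509 for Cyp4a14, and 871, 629 and 554 for St3gal5, which gave log2 changes of 5.93, -2.61 and -3.31. Lpin1 stood higher there, at 1035, 1024 and 723 (-4.06), and Car3 stood lower, at 1, 49 and 131 (5.79). G6pc, at 2394, 1221 and 1260, overlapped with the nonfasted rapamycin livers and did not pass (-0.91, adjusted p = 0.111). Sdc4, a heparan sulfate proteoglycan of the cell surface, differed between the mice of 1 group. It measured 656 and -34 in nonfasted rapamycin livers and 925.4, 499, 606, 628 and 697 in uninjected fasted livers (-3.35, adjusted p = 0.133), but 6, 10 and -53 in fasted vehicle 0 h livers and 38 and -3 in nonfasted vehicle livers. Without the first nonfasted rapamycin array its change became -6.70 (adjusted p = 0.0128).

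Against nonfasted livers given vehicle, far less differed. Of 6568 probe sets 5 were higher (0.0761%) and 61 were lower (0.929%) in nonfasted rapamycin livers, which with 1 probe set per gene is 0.0600% and 0.860%, or 0.920% in all, and 835 had an unadjusted p under 0.05. The nonfasted vehicle arrays held 24.3% to 24.6% of values at or below 0, against 35.3% to 36.4% on the nonfasted rapamycin arrays. All 33 arrays fell into a set with over 31% of such values and a set with under 31%. With the set as a term, which rests on refed groups with arrays of both sets, 4 were higher and 2 were lower. With only these 4 arrays in the fit 0 were called in either direction.

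Among the named genes 5 passed in this comparison. Cyp4a14 measured 562 and 572 in nonfasted rapamycin livers, against 944 and 697 in nonfasted vehicle livers (-0.52 ± 0.11, adjusted p = 0.0238, and 0.155 with the set term). St3gal5, at 71 and 65 against 161 and 145 in nonfasted vehicle livers, changed by -1.17 (adjusted p = 0.0336, and 0.431 with the term). Slc7a2, at 85 and 53 against 169 and 144 in nonfasted vehicle livers, changed by -1.22 (0.0467, and 0.513 with the term). All 3 were also lower against uninjected fasted livers. Dnajb6, a heat shock cochaperone, changed by -1.39 (0.0248, and 0.612 with the term), with 53 and 102 against 199 and 187 in nonfasted vehicle livers. Dnajb6 was lower against uninjected fasted livers too, though with overlap (-0.91, adjusted p = 0.0119). Without the first nonfasted rapamycin array that change was -0.44. Ms4a1, the B cell antigen CD20, measured 475 and 329 against 207 and 123 in nonfasted vehicle livers (1.31, adjusted p = 0.00323, and 0.0159 with the term), and so stood higher than in nonfasted vehicle but lower than in uninjected fasted livers, where it measured 569 to 742 (-0.69). Without the second nonfasted rapamycin array that change was -0.42 and its call was lost (adjusted p = 0.295).

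For sterol and fatty acid synthesis no member passed against nonfasted vehicle, and the intervals stayed wide. The difference for Idi1 was -0.03 (95% interval -1.36 to 1.29), for Fdps 0.02 (-1.36 to 1.40), for Hmgcs1 0.11 (-0.76 to 0.99) and for Fasn 0.88 (-0.58 to 2.33). For Srebf1 it was 0.62 (-1.06 to 2.29). Cpt1a differed by -0.20 (-0.64 to 0.24) and Ehhadh by -0.26 (-1.09 to 0.57), and with the term by -0.46 and -0.32. Pck1 measured 386 and 740 against 1216 and 1335 in nonfasted vehicle livers, a difference of -1.25 (-2.04 to -0.46) that missed the threshold in the limma fit (adjusted p = 0.125), and Igfbp1 measured 21 and 205 against 227 and 297 in nonfasted vehicle livers (-1.98, adjusted p = 0.325).

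**Figure D5:**
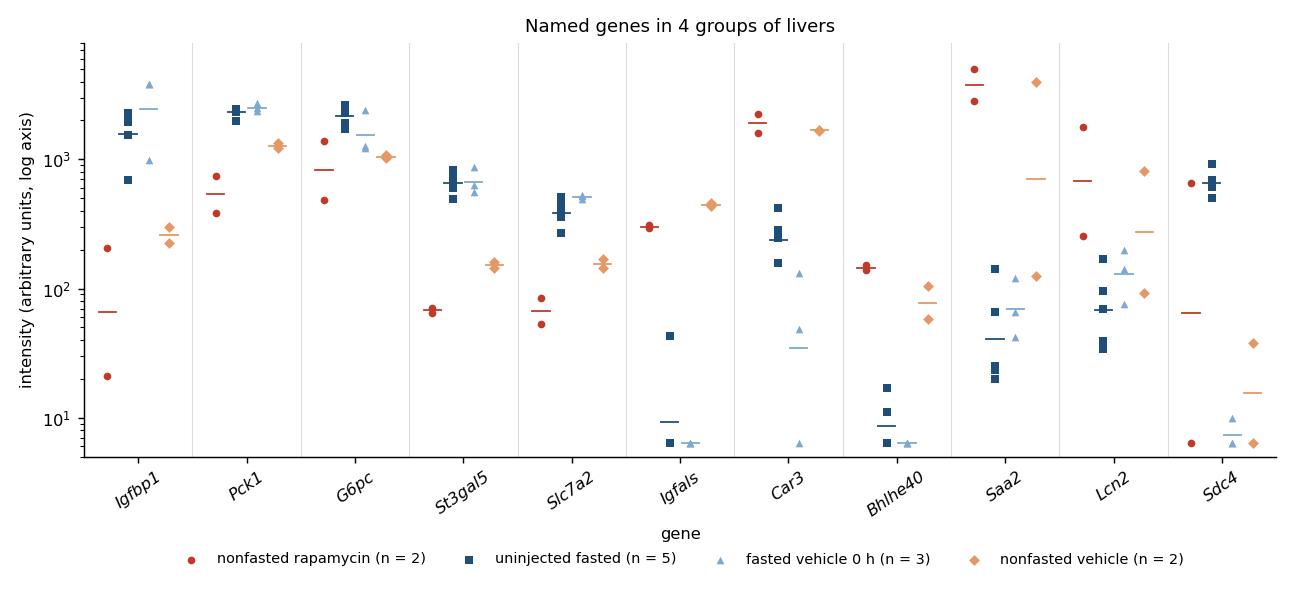
Intensities of 11 named genes on a log axis, with values under 6.31 drawn at 6.31. Points are single arrays of nonfasted rapamycin (n = 2), uninjected fasted (n = 5), fasted vehicle 0 h (n = 3) and nonfasted vehicle livers (n = 2), and lines are means of log values. St3gal5 and Slc7a2 lie lowest in nonfasted rapamycin livers, Saa2 spans 125 to 3949 in nonfasted vehicle livers, and Sdc4 is high in uninjected fasted livers and on 1 nonfasted rapamycin array.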

How the data were processed

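Liver RNA was measured on Affymetrix MG-U74Av2 arrays of 12488 probe sets. The deposited intensity values are linear, with negative values kept. The authors scaled the arrays after number 1, per the file headers, by a factor for each. Detection calls (present, marginal, absent) stand under experiment numbers in a second deposited table and were only counted over the 33 arrays. A further 66 columns of per-array values there were not used here. Raw scans were not used here.

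Groups came from the sample titles. The members and gene lists were chosen with earlier results of these data known. Testing kept 6568 probe sets, which were no controls and had a present call on at least 3 of the 33 arrays. Values were floored at 6.31, which is 0.1 of the mean trimmed mean, and taken to log2. One limma fit (limma 3.58.1, R 4.3.3) with 11 group means gave each contrast, on 22 residual and 1.89 prior degrees of freedom, with p-values adjusted over the 6568. Where every array of the lower group lay at or below 30, the floor in the header of the authors' table, "at least" gives the higher group's mean log2 (values raised to 30) over log2 of 30. The fit was tested on simulated data.

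Symbols came from the annotation of the platform (10855 carry 1 symbol, 396 several and 1237 none). Gene positions and promoters are from RefSeq, GRCm38.p6. For lists, each gene was read from its brightest probe set. Named are the 12 largest rises and 12 largest falls by values floored at 30, up to 4 passing members of each of 45 lists, and 31 measured genes of a list of 36. The other list members named were chosen after their values were seen.

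Alternatives were scaling to 1 trimmed mean, quantile normalization, the floor halved, doubled or at 30, no detection filter or presence on 11 arrays, trended robust eBayes, only the groups compared, a replicate block, the array set as a term, and leaving out each array. Arrays of the nonfasted rapamycin and uninjected fasted groups that share a number had r = 0.0104 and 0.0019 after subtraction of group means. The 2 nonfasted rapamycin arrays then deviate by equal and opposite amounts, so these values are not separate checks and cannot settle pairing. Numbers were not taken as pairs, and with a replicate block 18 of 137 named genes that had passed lost the call.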

Additional observations from a re-analysis of the deposited data

Results flagged for a closer look

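Single mice of the uninjected fasted group of 5 stood apart for 7 of 149 named genes by Dixon's test. Chance does so in about 1 of 20 groups of unrelated, normally spread values. The named genes share arrays and are not unrelated, so the count of 7 was not read against that rate. Angptl4 was lowest at 367 against 469.6 to 506 on the other arrays. The highest values were 259 for Csf1r (the others reached at most 135.3), 305 for Gadd45g, 83 for Gar1, 113.3 for Ndufv3, 398 for Pdk4 and 88 for Psmb8. The second uninjected fasted array gave the high value of Csf1r, Gadd45g, Pdk4 and Psmb8, and it also gave the highest Txnip value, 865. In nonfasted rapamycin livers the genes with a high value measured 179 and 137 (Csf1r), 11 and 22 (Gadd45g), 7 and 20 (Gar1), 184 and 213 (Ndufv3), 38 and 34 (Pdk4), and 150 and 122 (Psmb8).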

How the results depend on the processing

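Of 137 named genes that passed against uninjected fasted livers, 73 kept the call in all 19 alternatives, 64 lost it in at least 1 and 0 changed sign (131 of the 137 were tested with presence on 11 arrays). Leaving out single arrays gave 395 to 829 higher and 374 to 718 lower probe sets, lowest without the second nonfasted rapamycin array (672 and 517 without the first). With a replicate block the counts were 669 and 529, and 778 and 888 with scaling to 1 trimmed mean, where lower calls outnumbered higher ones. With only the 7 nonfasted rapamycin and uninjected fasted arrays in the fit, 33 of the 137 named calls were lost and 1 was gained. Against fasted vehicle 0 h, only the arrays of these groups gave 113 higher and 74 lower, and single arrays left out gave 470 to 949 higher and 359 to 603 lower. Against nonfasted vehicle, higher and lower counts were 4 and 2 with the array set term (which also turned the sign of differences that had not passed, such as Orm2, 0.62 and -0.66 with it), 7 and 13 with the term and a floor of 30, 12 and 81 with the floor doubled, 11 and 55 at 30, 14 and 93 without the detection filter, 3 and 31 with presence on 11 arrays, 25 and 55 after quantile normalization, 15 and 46 after scaling to 1 trimmed mean, 9 and 61 with trended robust eBayes, 2 and 43 with a replicate block, and 0 and 0 with only these arrays. Leaving out single arrays gave 5 to 10 higher and 21 to 61 lower there. The cause of these shifts was not tested. Log2 changes of genes near background depend on the floor, and 2 nonfasted rapamycin arrays limit every result.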

Other observations

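Amino acid breakdown and energy genes moved in both directions. Of 32 urea cycle and amino acid genes 6 were higher and 11 were lower in nonfasted rapamycin livers than in uninjected fasted livers, with 3 higher without the second nonfasted rapamycin array. Oat, ornithine aminotransferase, measured 563 and 530 in nonfasted rapamycin livers, against 1208.1, 1339, 1343, 1104 and 1230 in uninjected fasted livers (-1.18 ± 0.17). Arg1, the last step of the urea cycle, changed by -0.71 and Cps1, its entry step, by -0.54. Glud1, glutamate dehydrogenase, ran the other way, with 806 and 801 against 351.7, 351, 379, 421 and 345 in uninjected fasted livers (1.12 ± 0.12, adjusted p = 1.61e-07). Of 62 oxidative phosphorylation genes 12 were higher and 2 were lower, and the 12 became 1 without the second nonfasted rapamycin array.

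Among 15 growth arrest genes 5 were lower and 1 was higher, and the 5 became 2 without either nonfasted rapamycin array. Cdkn1a, the cell cycle inhibitor p21, measured 27 and 37 in nonfasted rapamycin livers, against 172.9, 210, 209, 238 and 87 in uninjected fasted livers (-2.46 ± 0.46, adjusted p = 0.000318). Fasted vehicle 0 h livers measured 276, 335 and 127 for it, and nonfasted vehicle livers 9 and -1. Of 18 heat shock genes 5 were lower and 1 was higher, with 1 lower without the first nonfasted rapamycin array. Hspd1, the mitochondrial chaperonin, changed by -0.59 (adjusted p = 4.91e-05). Prdx2, a peroxiredoxin, measured 241 and 262 against 148.2, 115, 127, 104 and 133 in uninjected fasted livers (1.01 ± 0.16), while a dimmer Prdx2 probe set gave -0.08 (adjusted p = 0.88).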
